A study of Sus scrofa with 63 samples.

Results

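The hepatic mRNA of 6 fatty acid oxidation enzymes was followed through 4 ontogenetic stages of German Landrace pigs: CPT1A, ACADVL, ACADL, ACAA2, DECR1 and ACAA1. They were taken as all probe-sets that the array's annotation assigns to exactly one of these symbols, which gave 7 of the 23935 probe-sets without controls, or 6 of 6765 genes with a symbol. ACADVL had 2 probe-sets, each of the other enzymes 1, and the probe-set with the highest mean signal stood for the gene. All animals were offspring of gilts that received a gestational high protein diet (HP), and their livers were collected at 94 days post conception (94 dpc) in 16 fetuses and after birth, counted in days post natum (dpn), in 16 piglets at 1 dpn, 15 pigs at 28 dpn and 16 at 188 dpn. One Affymetrix porcine array was hybridised per animal. Period I is the step from 94 dpc to 1 dpn, period II from 1 dpn to 28 dpn and period III from 28 dpn to 188 dpn, and the question was how the entry, mitochondrial and peroxisomal steps of fatty acid oxidation moved in each.

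The design limits what a change between stages can be assigned to. The fetuses came from a separate experiment. Period I holds the end of gestation as well as birth, so changes before and after birth cannot be told apart in it. According to the methods, light and heavy sibs were picked at 94 dpc and 1 dpn, whereas at 28 and 188 dpn pigs were fasted overnight and killed in another way, so age cannot be told apart from feeding state and from the mode of killing. Piglets kept beyond the first days were nursed by foster sows. Each stage held offspring of 8 gilts. Sex and mother were not in the labels, so sibs were treated as independent animals and the p-values leave out what sibs share. Offspring of dams on the adequate diet were not analysed here, and nothing below compares diets.

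Long-chain fatty acids are activated to acyl-CoA and enter mitochondria as carnitine esters. CPT1A, the liver form of carnitine palmitoyltransferase on the outer mitochondrial membrane, makes these esters and is the regulated entry step, held back by malonyl-CoA. Inside, ACADVL (very long-chain) and ACADL (long-chain acyl-CoA dehydrogenase) take the first step of each oxidation round and ACAA2, the mitochondrial thiolase, the last, while DECR1 reduces dienoyl-CoA so that polyunsaturated chains can pass. Peroxisomes run a related chain-shortening pathway, with ACAA1 as its thiolase. The newborn liver meets a milk diet rich in fat after a fetal life fed largely on glucose.

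Signals are given on the log2 scale, so that a difference of 1 is a doubling. Their levels are compared between stages for one probe-set at a time and never between probe-sets. Between enzymes only the changes from stage to stage are compared. All 6 enzymes were measured well over background, which averaged 5.64 to 6.10 per stage as the level of control probe-sets without a target. Only the second probe-set of ACADVL was at background on 1 array of 94 dpc. Each array had been scaled to one trimmed mean, and the array median fell from 7.38 at 94 dpc to 6.72 at 188 dpn. As an alternative each array was centred on the median of the probe-sets tested in the pair of stages. This centring adds 0.10 to every change of periods I and III and 0.23 to every change of period II. Where a call of one of the 6 enzymes depends on it, this is said. For the gene lists, counts are given as deposited, with those after centring or quantile normalization where they moved most. Array 6 of 94 dpc correlated least with its stage (median r 0.85). Spiked control RNAs are probed at their 3′ and 5′ ends. Their 3′ minus 5′ difference was 0.23 to 0.46 at 94 dpc and 0.66 or more on every later array. In period I and the wider steps from 94 dpc, stage therefore cannot be told apart from this difference between the arrays. All 10 measured hepatocyte markers were above background on at least 50% of the arrays of every stage.

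In period I, 4 of the 6 enzymes rose and 1 fell (limma, adjusted p under 0.05 over 12839 probe-sets), beside 22.9% of all probe-sets called higher and 34% called lower. In period II 3 rose and 2 fell, beside 28.8% and 42.9%. In period III 4 rose and 1 fell, beside 12.3% and 22.5%. The median change over the 6 enzymes was 0.69 in period I, against -0.10 over all probe-sets tested, then 0.33 against -0.14 in period II and 0.38 against -0.07 in period III. With 1 probe-set per gene symbol, as for the enzymes, 28% rose and 30.9% fell in period I (median -0.03). These shares were 34.1% and 36.8% in period II (median -0.01) and 13.6% and 26.6% in period III (median -0.08). Since whole liver was sampled, fewer cells of a type and less RNA per cell cannot be told apart in any of these changes. The split of all calls rests on the scaling, since rises made up 40.2%, 40.1% and 35.4% of the calls as deposited and 50.9%, 54.6% and 56.2% after centring. CPT1A and ACADVL, 2 of the 6 enzymes, had arrays in period I that did not overlap between the stages, against 5.05% of all probe-sets. None of the 6 was free of overlap in period II or III, where 11.7% and 1.26% of all probe-sets were.

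**Figure D1:**
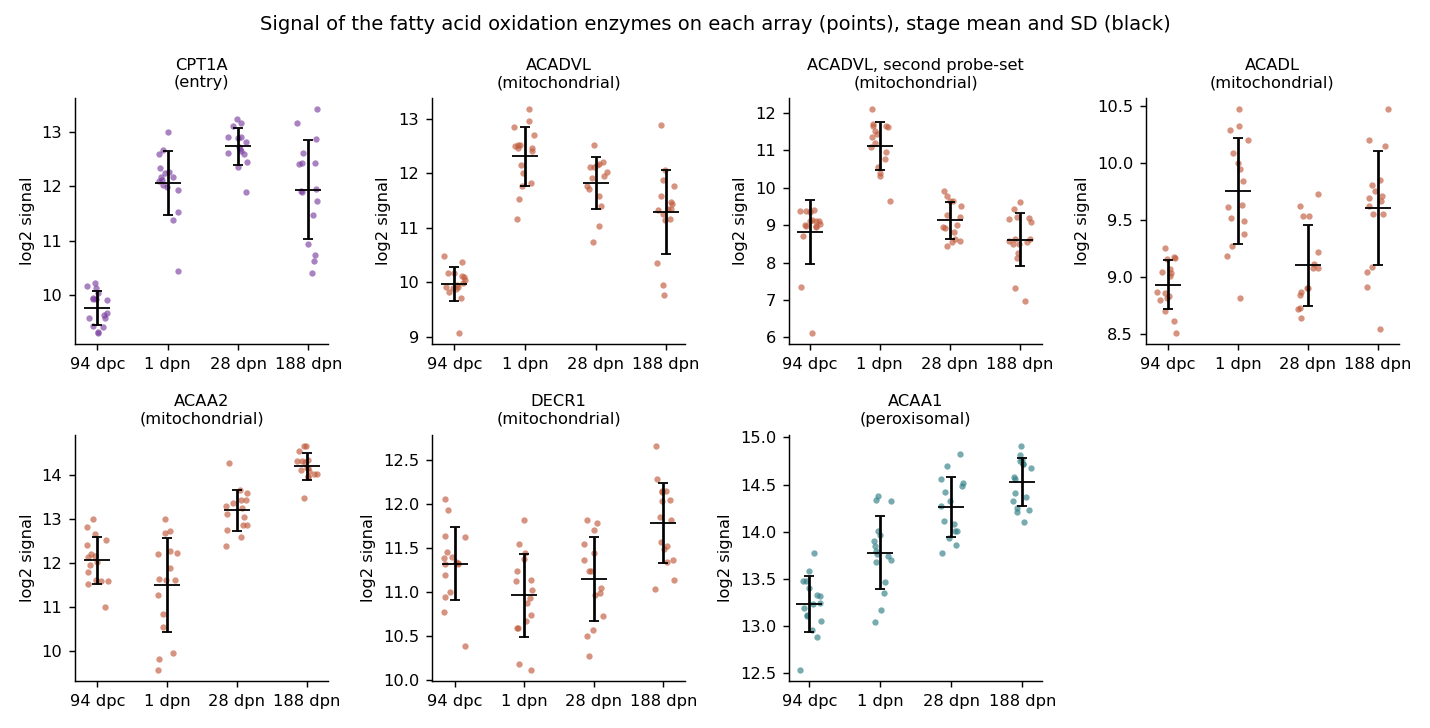
Log2 signal of the fatty acid oxidation enzymes (vertical axes, a scale of its own in each panel) at the 4 stages (horizontal axes), with 1 point per array and the stage mean ± SD in black. CPT1A and ACADVL stepped up by 2.30 and 2.34 between 94 dpc and 1 dpn with no overlap of arrays, while ACAA2 rose after birth to a mean of 14.19 at 188 dpn.

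The entry enzyme CPT1A was low in the fetus, rose about 5-fold in period I, was highest at 28 dpn and was lower again at 188 dpn. At 94 dpc its arrays lay between 9.30 and 10.21 (median 9.79), and at 1 dpn between 10.45 and 13.01 (median 12.14). At 28 dpn they lay between 11.90 and 13.24 (median 12.73) and at 188 dpn between 10.40 and 13.42 (median 11.94). Every array after birth was thus above every fetal array, and the 188 dpn arrays spread over the whole range of both earlier postnatal stages. The change in period I was 2.30 (SE 0.16, 4.93-fold, adjusted p = 9.58e-14). In period II CPT1A rose by a further 0.67 (SE 0.17, 1.60-fold, adjusted p = 6.92e-04), and in period III it fell by 0.80 (SE 0.24, 1.74-fold, adjusted p = 0.00923). These 3 calls held under each alternative that was run.

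The spread of CPT1A differed by stage. Its SD was 0.31 in fetuses and 0.58 in neonates, then 0.34 at 28 dpn and 0.91 at 188 dpn, where the highest pig had 8.15 times the signal of the lowest. At 1 dpn array 9 alone was at 10.45, with the next at 11.38. At 188 dpn, by contrast, 4 pigs lay between 10.40 and 10.94 and the others followed up to 13.42 with no single array apart. In the order of its levels, 94 dpc was lowest and 28 dpn highest, while 1 dpn and 188 dpn were not separated (-0.12, SE 0.26, adjusted p = 0.681). For such wider steps, 80.2% of all probe-sets were called between 94 dpc and 28 dpn, 80.1% between 94 dpc and 188 dpn and 73.6% between 1 dpn and 188 dpn.

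ACADVL, the first mitochondrial dehydrogenase for the longest chains, rose as much as CPT1A in period I and then declined. Its main probe-set ranged from 9.07 to 10.48 (median 9.97) at 94 dpc and from 11.16 to 13.18 (median 12.46) at 1 dpn. It ranged from 10.74 to 12.52 (median 11.94) at 28 dpn and from 9.77 to 12.88 (median 11.35) at 188 dpn. The fetal arrays lay below all those of 1 and 28 dpn, but 3 pigs at 188 dpn (9.77, 9.95 and 10.35) were within the fetal range. ACADVL rose by 2.34 in period I (SE 0.15, 5.06-fold, adjusted p = 1.64e-14) and fell by 0.49 in period II (SE 0.18, 1.40-fold, adjusted p = 0.0151). After centring the change in period II was -0.26 and was not called (adjusted p = 0.197), and with the mean of both ACADVL probe-sets it was -1.24 and called. In period III the difference was -0.53 (SE 0.22, adjusted p = 0.0601), and it was called under 5 of the alternatives. From 1 dpn to 188 dpn as a whole it fell by 1.02 (SE 0.23, adjusted p = 1.52e-04).

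The second ACADVL probe-set rose alike in period I but fell far more by 28 dpn. Its arrays ranged from 6.12 to 9.41 (median 9.06) at 94 dpc and from 9.64 to 12.09 (median 11.27) at 1 dpn. At 28 dpn they ranged from 8.44 to 9.91 (median 9.01) and at 188 dpn from 6.98 to 9.61 (median 8.60). Its juvenile and adult arrays thus overlapped the fetal ones, with 5 of 15 juveniles above all fetuses, whereas all 15 juveniles were above all fetuses on the main probe-set. The second probe-set rose by 2.30 in period I (SE 0.26) and fell by 1.99 in the next (SE 0.20, adjusted p = 2.22e-10), and its difference in period III was -0.51 (adjusted p = 0.0573). The gap between both probe-sets widened by 1.51 in period II (95% interval 1.28 to 1.73, two-sided permutation test, p = 1e-05, the smallest the resamples can give), and moved by 0.04 (-0.36 to 0.43) in period I and -0.02 (-0.23 to 0.19) in period III. This comparison was chosen after its values were seen. In the same period the actin controls, whose 3′ and 5′ ends are probed separately, moved from a 3′ minus 5′ difference of -0.47 at 1 dpn to 1.69 at 28 dpn. The part of that shift in the result was not tested, and which fall is that of the transcript cannot be told from these data.

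ACADL moved up in period I, down in the suckling period and up again. It ranged from 8.51 to 9.25 (median 8.93) at 94 dpc and from 8.81 to 10.47 (median 9.73) at 1 dpn. It ranged from 8.64 to 9.73 (median 9.07) at 28 dpn and from 8.54 to 10.47 (median 9.68) at 188 dpn. All 4 ranges overlapped, although 14 of the 16 neonatal arrays were above the highest fetal one. ACADL rose by 0.82 in period I (SE 0.13, 1.77-fold, adjusted p = 1.96e-06), fell by 0.65 in period II (SE 0.15, 1.57-fold, adjusted p = 2.25e-04) and rose by 0.50 in period III (SE 0.15, 1.41-fold, adjusted p = 0.0102). In the order of levels 94 dpc and 28 dpn stood at the low end, 0.17 apart (adjusted p = 0.140, but 0.51 and called after centring), and 188 dpn and 1 dpn at the high end (-0.15 from 1 dpn to 188 dpn, adjusted p = 0.418).

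ACAA2, the thiolase that ends each mitochondrial round, had the opposite timing, with no rise in period I and the largest rises of the 6 enzymes afterwards. Its fetal arrays ranged from 11.00 to 13.01 (median 12.07) and its neonatal arrays from 9.58 to 13.00 (median 11.63). They ranged from 12.40 to 14.26 (median 13.26) at 28 dpn and from 13.47 to 14.66 (median 14.16) at 188 dpn. All adult pigs were above all neonates. Between 94 dpc and 1 dpn the difference was -0.57 (SE 0.28, adjusted p = 0.0889), and it was called under 3 of the alternatives. ACAA2 then rose by 1.70 in period II (SE 0.29, 3.24-fold, adjusted p = 4.04e-06) and by 1.00 in period III (SE 0.14, 2.00-fold, adjusted p = 8.24e-07).

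The neonates differed widely in ACAA2, with an SD of 1.07 and 10.7-fold between the lowest and the highest piglet. Arrays 12, 11 and 1 were lowest, at 9.58, 9.83 and 9.96, and these arrays were not low for CPT1A, at 12.02, 12.26 and 12.59. Array 9, lowest for CPT1A and ACADVL, had 12.22 for ACAA2, above its stage's median. At 188 dpn the SD of ACAA2 was 0.30.

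DECR1 had small differences between the first stages and rose in the last period. It ranged from 10.38 to 12.06 (median 11.33) at 94 dpc and from 10.12 to 11.81 (median 10.98) at 1 dpn. It ranged from 10.28 to 11.82 (median 11.23) at 28 dpn and from 11.03 to 12.66 (median 11.83) at 188 dpn. The first 3 stages overlapped almost wholly, and 9 of the 16 adult arrays were above every juvenile one. DECR1 fell by 0.36 in period I (SE 0.15, 1.28-fold, adjusted p = 0.0484), a call that was lost under 7 alternatives, among them leaving out array 6 of 94 dpc (-0.31, adjusted p = 0.0786), array 9 of 1 dpn (-0.36, adjusted p = 0.0526) and centring (-0.25, adjusted p = 0.158). In period II the difference was 0.18 (SE 0.17, adjusted p = 0.329), and 0.41 and called after centring. In period III DECR1 rose by 0.64 (SE 0.16, 1.56-fold, adjusted p = 0.00244), a call that held throughout.

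ACAA1, the peroxisomal thiolase, rose in small steps from stage to stage. Its arrays ranged from 12.54 to 13.78 (median 13.24) at 94 dpc and from 13.04 to 14.38 (median 13.78) at 1 dpn. They ranged from 13.78 to 14.83 (median 14.27) at 28 dpn and from 14.10 to 14.91 (median 14.57) at 188 dpn. Neighbouring stages overlapped, whereas the fetal range ended below the adult one. The rises were 0.55 in period I (SE 0.12, 1.46-fold, adjusted p = 3.26e-04), 0.48 in period II (SE 0.13, 1.39-fold, adjusted p = 0.00134) and 0.26 in period III (SE 0.10, 1.20-fold, adjusted p = 0.0481). Only the first was independent of the scaling. With quantile normalization the rises in periods II and III were 0.22 (adjusted p = 0.123) and 0.14 (adjusted p = 0.373). The SD between animals was 0.25 to 0.39 at each stage.

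**Figure D2:**
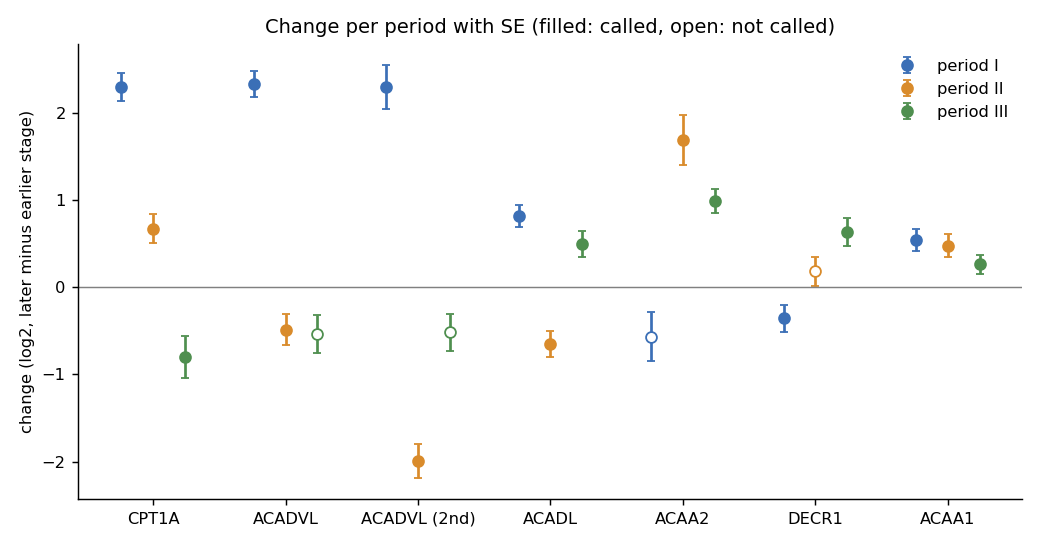
Change of each enzyme in log2 signal (vertical axis, later minus earlier stage) in the 3 periods, as estimate ± SE, filled where adjusted p is under 0.05. CPT1A and both probe-sets of ACADVL (2nd, the second one) share the rise of 2.30 to 2.34 in period I and part in period II, where ACAA2 has the largest rise at 1.70.

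Whether steps of the pathway moved apart was tested on the difference of 2 enzymes within each array, which removes what scales a whole array. Over 9 pairs and 3 periods, 19 of 27 such comparisons passed an adjusted p of 0.05 (two-sided permutation of arrays, 100000 resamples), 7 in period I and 6 each in periods II and III. Each enzyme was read from its main probe-set. A difference between probe-sets need not be one between enzymes, as the 2 probe-sets of ACADVL moved apart by 1.51 in period II. In period I the entry enzyme CPT1A rose more than 3 of the 4 mitochondrial enzymes. It gained 1.48 on ACADL (95% interval 1.05 to 1.91), 2.66 on DECR1 (2.19 to 3.12) and 2.87 on ACAA2 (2.11 to 3.63), all at adjusted p = 3e-05. CPT1A and ACADVL were not separated, with a difference of changes of -0.04 (-0.33 to 0.26, adjusted p = 0.802). CPT1A also gained 1.76 (1.39 to 2.12) on the peroxisomal ACAA1.

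In period II CPT1A and the main probe-set of ACADVL parted, with CPT1A gaining 1.16 (0.80 to 1.52, adjusted p = 5.4e-05) on it. On ACADL CPT1A gained 1.33 (0.91 to 1.75). Against ACAA2 the change of CPT1A differed by -1.02 (from -1.79 to -0.26, adjusted p = 0.015). Its differences of change from DECR1 (0.49, from -0.01 to 0.99, adjusted p = 0.0717) and ACAA1 (0.19, from -0.19 to 0.57, adjusted p = 0.333) did not pass. In period III CPT1A fell behind the other enzymes, with a difference of changes of -1.30 from ACADL (-1.83 to -0.76), -1.79 from ACAA2 (-2.33 to -1.25), -1.43 from DECR1 (-2.03 to -0.84) and -1.06 from ACAA1 (-1.62 to -0.50). ACADVL was again the enzyme from which it was not separated (-0.26, from -0.81 to 0.28, adjusted p = 0.339).

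The peroxisomal ACAA1 did not move with the mitochondrial enzymes as a group. In period I its change differed by -1.79 from that of ACADVL (-2.15 to -1.43), but it gained 1.11 on ACAA2 (0.45 to 1.77, adjusted p = 0.00208) and 0.90 on DECR1 (0.49 to 1.32, adjusted p = 3.24e-04). In period II it gained 0.97 on ACADVL (0.62 to 1.31) and 1.13 on ACADL (0.80 to 1.46) and differed by -1.22 from ACAA2 (-1.84 to -0.59). In period III it gained 0.80 on ACADVL (0.32 to 1.27, adjusted p = 0.00145) and differed by -0.73 from ACAA2 (-1.07 to -0.40). From DECR1 it was not separated in period II (0.30, from -0.13 to 0.73) or III (-0.37, from -0.82 to 0.07). ACAA1 and ACAA2 thus changed by different amounts in all 3 periods, and other thiolases, such as SCP2, were not compared in this way. Against ACADL the differences of -0.28 in period I (adjusted p = 0.0554) and -0.24 in period III (adjusted p = 0.269) passed only with quantile normalization.

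**Figure D3:**
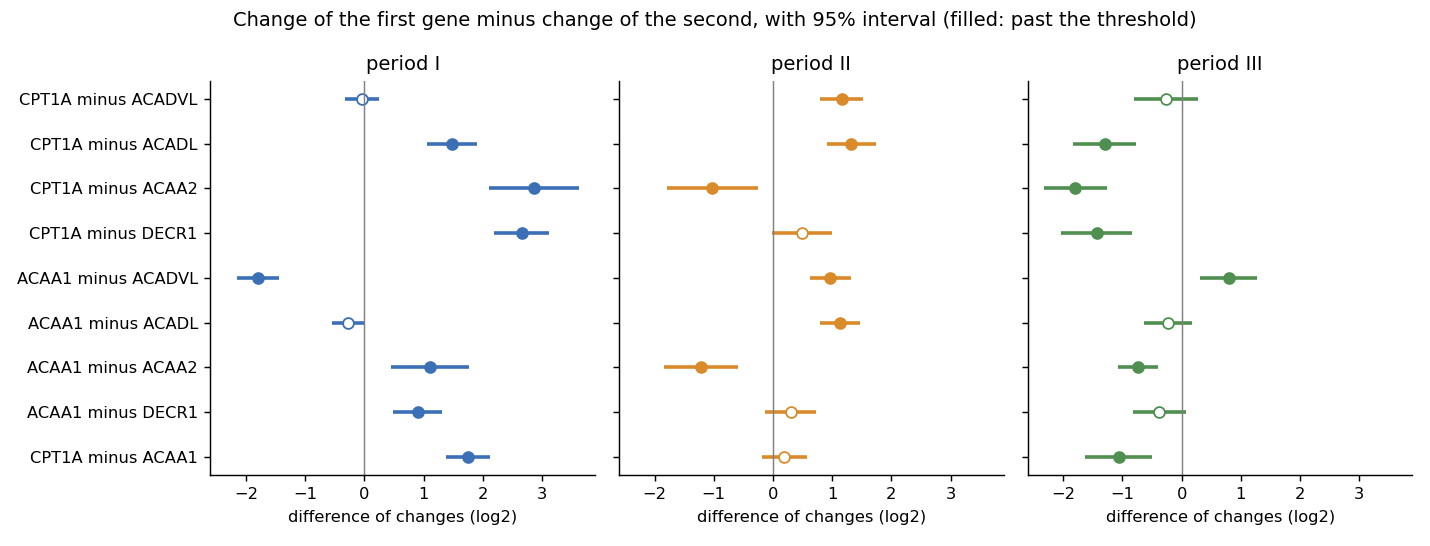
Difference between the changes of 2 enzymes (horizontal axes, log2, first named minus second) for the 9 pairs (vertical axis) in each period, with 95% intervals and filled points where the adjusted permutation p is under 0.05. CPT1A minus ACADVL is near 0 in period I (-0.04) and at 1.16 in period II, and in period III the differences of CPT1A from ACADL, ACAA2, DECR1 and ACAA1 run from -1.79 to -1.06.

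Of 60 correlations (15 pairs at 4 stages, 15 or 16 arrays each), 0 passed an adjusted p of 0.05 in the permutation test and 7 had an unadjusted p under 0.05. The values of r ran from -0.47 to 0.65, with a median of 0.17, and arrays share scaling and labelling. CPT1A and ACADVL gave r = 0.45, 0.65, 0.26 and 0.44 at 94 dpc, 1 dpn, 28 dpn and 188 dpn. At 1 dpn (rho 0.51, permutation p = 0.00618 for r and 0.0486 for rho, adjusted p = 0.198 and 0.345) the value fell to 0.33 without the 2 arrays farthest from the median of CPT1A. ACADL and DECR1 gave r = 0.62 at 1 dpn (rho 0.71, permutation p = 0.0111 and 0.00255, adjusted 0.198 and 0.153) and 0.60 at 188 dpn (rho 0.54, permutation p = 0.0129 and 0.0334, adjusted 0.198 and 0.345). Without the 2 arrays farthest from the ACADL median they were 0.74 and 0.79.

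The other genes of the pathway were read from 4 lists, on activation and uptake, carnitine entry, mitochondrial oxidation and peroxisomal oxidation. Of 33 such genes tested in period I, 20 rose and 5 fell (median change 0.50), where over 5225 genes with a symbol 28% rose and 30.9% fell (median -0.03). In period II 12 of 32 rose and 10 fell (median -0.04), beside 34.1% and 36.8% of 5354 genes. In period III 14 of 32 rose and 5 fell (median 0.22), beside 13.6% and 26.6% of 5235 genes. The balance of period II rests on the scaling, with 14 rises and 6 falls after centring and 9 rises and 12 falls with quantile normalization. In period I these counts were 21 and 3 after centring and 20 and 5 with quantile normalization, and in period III 16 and 3, and 10 and 5.

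The carnitine entry genes that could be tested moved with CPT1A in period I. All 4 other genes tested rose in period I: CRAT, carnitine acetyltransferase, by 1.31 (SE 0.12), the carnitine-acylcarnitine carrier SLC25A20 by 1.09 (SE 0.15), the carnitine importer SLC22A5 by 0.94 (SE 0.24) and CPT1C, the brain-type paralogue, by 0.54 (SE 0.14). In period II SLC22A5 rose by 1.02 (SE 0.20), beside CPT1A, and the other 3 did not pass, although CRAT was called after centring (0.38). In period III SLC22A5 fell by 0.98 (SE 0.15) and CPT1C by 0.70 (SE 0.14), as CPT1A did, while SLC25A20 rose by 0.29 (SE 0.10). CPT2, which takes the carnitine off again inside the mitochondrion, and the muscle form CPT1B were too weak to be tested. CPT2 was above background on 14 of 16 fetal, 11 of 16 neonatal and 7 of 16 adult arrays, with a mean of 6.84 in fetuses and 6.17 in neonates. CPT1B was above background on 2 of 16 fetal and 7 of 16 neonatal arrays, with means of 4.74 and 5.43.

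Of the 13 other mitochondrial genes tested, 11 rose in period I and none fell (median 0.60), the 2 not called being ACAD11 (0.26) and the hydratase ECHS1 (-0.11). ETFDH and ETFB, which pass electrons from the acyl-CoA dehydrogenases to the respiratory chain, rose by 1.20 (SE 0.09) and 1.10 (SE 0.13). In period II 6 of the 13 rose and 4 fell, beside 34.1% and 36.8% of all genes with a symbol. The isomerase ECI1 rose by 1.57 (SE 0.12), the short-chain dehydrogenase ACADS by 0.91 (SE 0.11) and ECHS1 by 0.86 (SE 0.09). Both subunits of the trifunctional protein, which handles long chains, fell, HADHB by 0.78 (SE 0.09) and HADHA by 0.66 (SE 0.11), as did ETFA by 0.69 (SE 0.10). In period III 7 rose, with ECI1 at 0.59 (SE 0.09), the medium-chain dehydrogenase ACADM at 0.54 (SE 0.15) and ACADS at 0.53 (SE 0.09), and HADHA fell by 0.29 (SE 0.11), a call lost after centring. The genes for long chains that fell in period II (ACADVL, ACADL, HADHA, HADHB) and the short-chain enzymes that rose were grouped here after their values were seen. The grouping is partial. CPT1A, which serves long chains, rose by 0.67 in period II, ACAD9, another acyl-CoA dehydrogenase, rose by 0.32, and the fall of ACADVL was lost after centring. Of the electron carriers, ETFB rose by 0.75 while ETFA and ETFDH fell.

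Of the 9 other peroxisomal genes tested, 3 rose and 2 fell in period I. PHYH, which starts the breakdown of phytanic acid, rose by 1.70 (SE 0.18), the racemase AMACR by 0.80 (SE 0.20) and the importer ABCD3 by 0.55 (SE 0.19), whereas the thiolase SCP2 fell by 0.57 (SE 0.10) and the oxidase ACOX2 by 0.36 (SE 0.12), a call that centring removed. In period II 4 rose, among them the oxidase ACOX3 by 1.05 (SE 0.33), AMACR by 0.89 (SE 0.19) and PHYH by 0.87 (SE 0.12). ABCD3 fell by 0.61 (SE 0.21) and SCP2 by 0.38 (SE 0.12), both lost after centring. In period III 5 rose and none fell, with ACOX2 at 0.52 (SE 0.09), the peroxisomal dienoyl-CoA reductase DECR2 at 0.50 (SE 0.08) and SCP2 at 0.44 (SE 0.12). The rises of SCP2 and PHYH in period III and of ACOX2 in period II were lost with quantile normalization. ACOX2 had a second probe-set that was called the other way in period II (-0.67).

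Of 7 activation and uptake genes tested in period I 2 rose and 3 fell. ACSL5 and ACSL1, acyl-CoA synthetases of the liver, rose by 1.16 (SE 0.11) and 0.74 (SE 0.12) in period I, while ACSL4, which prefers arachidonic acid, fell by 2.81 (SE 0.29) in period I and by 2.72 (SE 0.31) in period II. ACSL6 was above background on all 16 fetal and 5 of 16 neonatal arrays, so its fall in period I is known only as a bound, at least 3.06-fold, with the neonatal arrays set no lower than their background. ACSL3 fell by 1.92 (SE 0.19) in period II. ACSL1 fell by 0.29 and ACSL5 by 0.25 in period II, calls that centring removed, and ACSL5 fell by 0.79 (SE 0.09) and ACSL1 by 0.36 (SE 0.12, lost after centring) in period III. The acyl-CoA binding protein DBI fell by 0.35 in period I and rose by 0.25 in period II and 0.22 in period III, none of them called after quantile normalization. BDH1, a ketone body dehydrogenase and the one gene measured of the list on ketone body synthesis, rose by 1.52 (SE 0.13) and 0.74 (SE 0.12) in periods I and II and fell by 0.32 (SE 0.09) in period III, the last lost after centring.

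**Figure D4:**
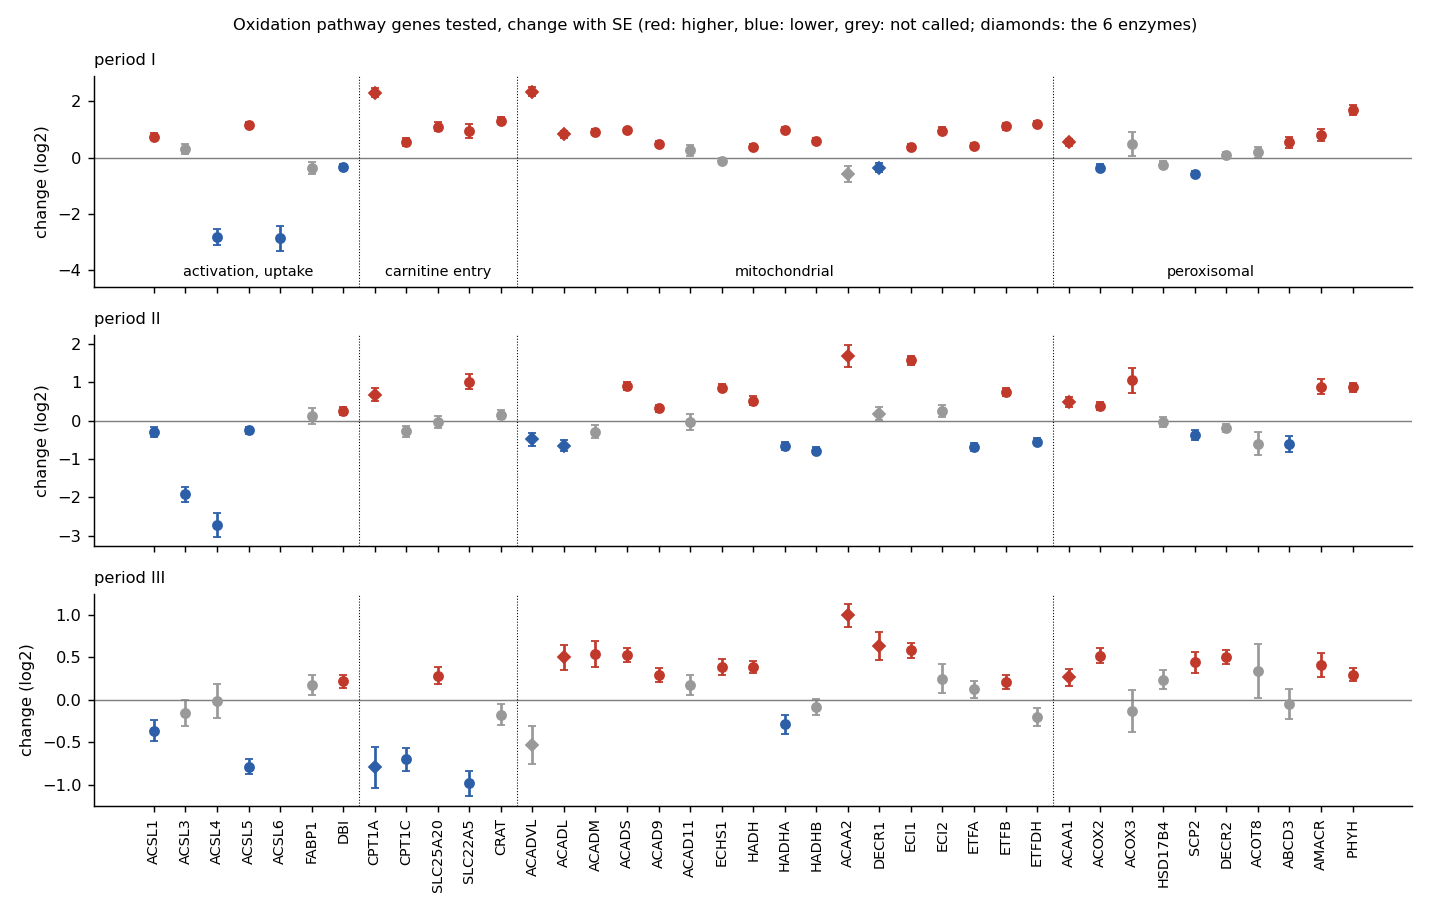
Change in log2 signal ± SE (vertical axes, a scale of its own per period) of every tested gene of the 4 oxidation lists (horizontal axis, lists divided by dotted lines), red where called higher, blue where called lower and grey where not called, with diamonds for the 6 enzymes and ACSL6 at its fitted value (-2.87). In period I, 11 of the 13 other mitochondrial genes and all 4 other carnitine genes rose, beside 28% of all genes with a symbol. In period II 6 of these 13 rose and 4 fell, beside 34.1% and 36.8% of all genes with a symbol.

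Of 13 listed regulators 7 were measured. The nuclear receptor PPARA, an activator of fatty acid oxidation genes in liver, was above background on 2 of 16 fetal and 14 of 16 neonatal arrays. At 28 dpn 5 of 15 arrays and at 188 dpn 8 of 16 were above background. Its neonatal mean of 7.17 was at least 2.10-fold higher than in fetuses and at least 2.55-fold higher than in juveniles, with both of these groups set no lower than background (limma on the signals as deposited, adjusted p = 1.87e-06 and 1.45e-06). The fetal and juvenile means of 4.88 and 4.96 were under the mean background, and its second probe-set was above it on at most 2 arrays of a stage. PDK4, a kinase that turns off pyruvate oxidation and is itself a PPARA target, rose by 1.74 (SE 0.32) in period I and by 1.30 (SE 0.23) in period III. PPARGC1A, a coactivator of oxidative genes, fell by 1.70 (SE 0.25) in period II. Its differences of 0.39 in period I (adjusted p = 0.118) and 0.62 in period III (adjusted p = 0.0858) were called after centring (0.0445 and 0.0339) and with quantile normalization (0.0407 and 0.0325).

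RXRA, the partner of PPARA on DNA, fell by 0.72 (SE 0.11) and 0.96 (SE 0.18) in periods I and II. LPIN1, a phosphatidate phosphatase that also acts as a coactivator, fell by 1.37 (SE 0.14) in period I and rose by 3.20 (SE 0.23, adjusted p = 4.18e-12) in period III, without overlap between the stages. Its second probe-set rose by 2.84 there. SIRT3, a mitochondrial deacetylase, rose by 0.68 (SE 0.09) in period II, and PPARD was not called as deposited but was called in period II with quantile normalization (adjusted p = 0.0358). As deposited 2 regulators were called higher and 2 lower in period I, 1 higher and 3 lower in period II, PPARA among them in both, and 2 of 6 rose in period III, when CPT1A fell. With PPARGC1A, 3 were higher in each of periods I and III under either rescaling.

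**Figure D5:**
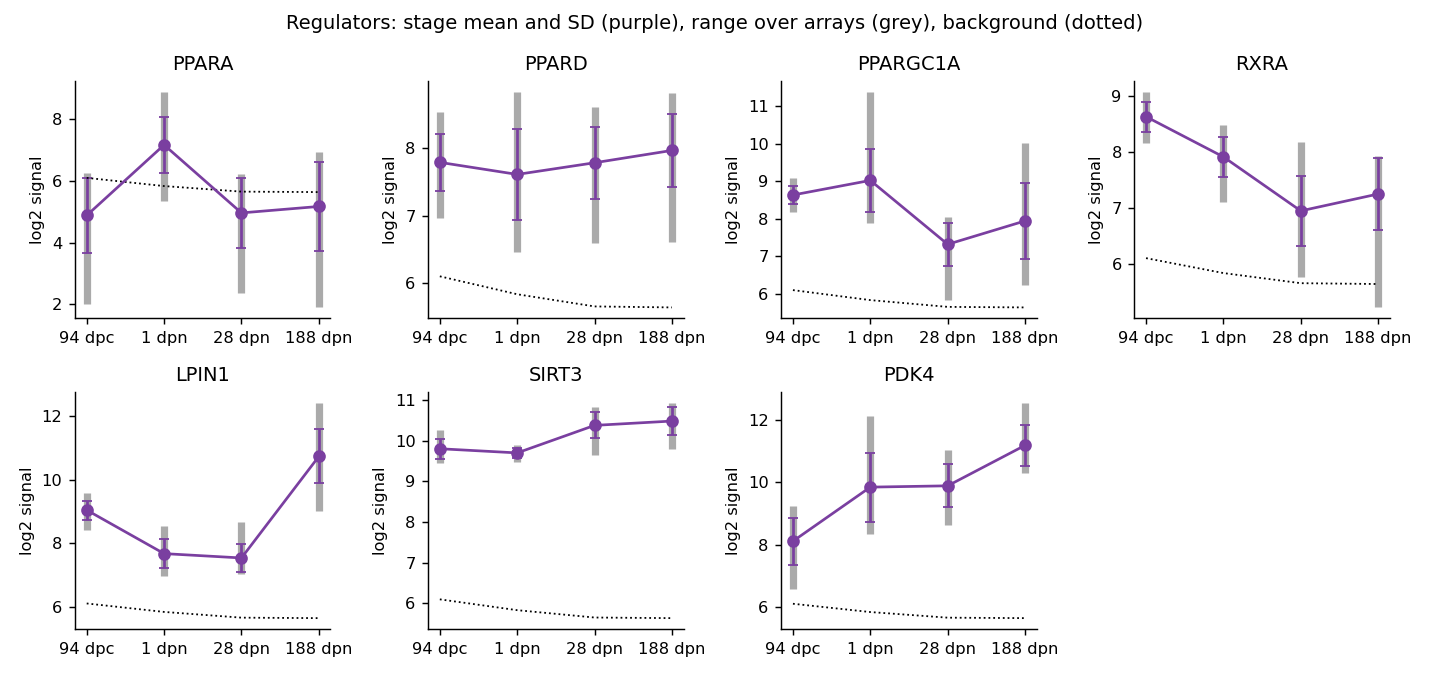
Log2 signal of the 7 measured regulators (vertical axes, a scale of its own in each panel) at the 4 stages, with mean ± SD in purple, the range over arrays in grey and the mean background level dotted. PPARA is highest at 1 dpn (mean 7.17), with its other stage means under background, and LPIN1 rises by 3.20 between 28 and 188 dpn.

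Lists on fatty acid synthesis and on organelles give the context of these changes. Of 7 synthesis genes tested in period I 5 fell and none rose, with the desaturase SCD at -3.10 (SE 0.31), fatty acid synthase FASN at -1.78 (SE 0.26) and ACSS2 at -1.70 (SE 0.16). In period II 3 rose and none fell, namely FADS2 by 1.32 (SE 0.29), FADS1 by 1.02 (SE 0.31) and ACSS2 by 0.46 (SE 0.15). In period III 4 rose and 2 fell, with SCD at 1.56 (SE 0.29), ME1 at 1.41 (SE 0.17) and ACSS2 at 1.09 (SE 0.25), against falls of FADS2 by 1.19 (SE 0.24) and ELOVL6 by 0.40 (SE 0.15), the last lost after centring. ACSS2 had another probe-set that was called the other way in period II.

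Of 9 genes for mitochondrial content 4 rose in period I (median 0.07), led by VDAC2 at 0.89 (SE 0.10), SDHB at 0.68 (SE 0.09) and SDHA at 0.49 (SE 0.07). In period II 2 rose (SDHA by 0.51, VDAC1 by 0.23) and 4 fell (TOMM20 by 0.93, TFAM by 0.64, ATP5A1 by 0.33 and CS by 0.24), and in period III 2 rose (SDHA by 0.27, SDHB by 0.20) and 1 fell (VDAC2 by 0.24). The rises of VDAC1 in period II and SDHB in period III were lost with quantile normalization, and the falls of ATP5A1, CS and VDAC2 were lost after centring. For period II the list gave 4 rises and 2 falls after centring but 1 rise and 6 falls with quantile normalization. VDAC2 in period I, CS, VDAC1 and SDHA in period II and SDHB in period III each had a probe-set called the other way. Of 8 genes for peroxisomes 2 rose and 1 fell in period I, 3 rose and 5 fell in period II, and 4 rose in period III. Of the 5 falls, those of PEX3, PEX7 and PEX14 were lost after centring, and with quantile normalization that of PEX2 was lost too and only PEX13 was called lower. PEX3 rose by 0.87 (SE 0.13) in period I and by 0.69 (SE 0.15) in period III, PEX19 fell by 0.56 (SE 0.09) in period I and rose by 0.88 (SE 0.10) in period II, and catalase (CAT) rose by 0.37 in period II and 0.33 in period III, the latter lost with quantile normalization. The median change of the 6 enzymes in period I, 0.69, stood beside 0.07 for mitochondrial content and 0.01 for peroxisome content. That median pools the steps. The mitochondrial enzymes ran from -0.57 (ACAA2) to 2.34 (ACADVL), with CPT1A at 2.30 and the peroxisomal ACAA1 at 0.55. The part of organelle content in these changes was not tested.

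Markers of other cell types moved between the stages as well. The summed linear signal of 6 measured red cell precursor markers was 16100 to 36800 at 94 dpc and 1520 to 4560 at 1 dpn, 3780 to 14800 at 28 dpn and 2500 to 6170 at 188 dpn. The 4 neutrophil and myeloid precursor markers summed to 880 to 12200 at 94 dpc and 465 to 4200 at 1 dpn, then 237 to 1950 and 225 to 955. The 7 T and NK cell markers summed to 340 to 1250 at 94 dpc, 207 to 527 at 1 dpn, 1100 to 3300 at 28 dpn and 811 to 2860 at 188 dpn, and all 3 tested in period II rose. The 9 macrophage markers summed to 2400 to 24400, 15700 to 38800, 45700 to 68600 and 27900 to 50200 at the 4 stages in order. Period I, in which CPT1A and ACADVL rose, was thus also the period in which blood-forming cell markers fell, and their part in the result was not tested. In period II the sums of the T and NK cell markers and of the macrophage markers were higher at 28 dpn than at 1 dpn without overlap, beside the changes of CPT1A, ACADVL, ACADL, ACAA2 and ACAA1, and their part in those was not tested either. The 10 hepatocyte markers summed to 486000 to 671000, 387000 to 650000, 355000 to 664000 and 341000 to 665000, ranges that overlap, and many calls of single markers rested on the scaling. In period I TTR and APOA1 fell and FGG and HP rose as deposited, and each was also called after centring and with quantile normalization. As deposited 6 of 10 fell in each of periods I and II, after centring 5 and 1, and with quantile normalization 2 and 3. The measured markers of endothelium (6), stellate cells and fibroblasts (7) and bile ducts (4) had medians of 5270 to 8050, 5390 to 6420 and 980 to 1590. Those of adipocytes (2) and skeletal muscle (4) had medians of 90.2 to 193 and 172 to 553.

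The genes with the stage pattern most like each enzyme were found by the root mean square (RMS) difference of the 4 centred stage means over 6969 probe-sets, as a description. Nearest to CPT1A were WFDC1 (0.14), the Toll-like receptor TLR2 (0.15) and the lipopolysaccharide binding protein LBP (0.19), and nearest to ACADVL were FKBP1B (0.12), HOMER2 (0.17) and CCDC167 (0.18). ACADL was nearest to the protease inhibitor CST3 (0.05), ACAD8, a dehydrogenase of valine breakdown (0.06), and BAG3 (0.07). ACAA2 was nearest to the peroxiredoxin PRDX6 (0.05), MACROD1 (0.06) and CD247 (0.13), and DECR1 to WIPI1 (0.02), PCOLCE2 (0.02) and CRIM1 (0.04). ACAA1 was nearest to SDHA (0.02), a subunit of succinate dehydrogenase, the mitochondrial protease LONP1 (0.04) and HINT1 (0.04). Among the 6 enzymes themselves the closest pair was DECR1 and ACAA1 at 0.45 and the farthest ACADVL and ACAA2 at 1.38.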

How the data were processed

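RNA from the livers of HP offspring was measured on 63 Affymetrix porcine arrays. The deposited values are log2 signals of 24123 probe-sets, which the submitters' processing notes credit to GCOS 1.1.1. Their linear values have a trimmed mean of 500.1 to 500.2 on each array (2% left out at each end) and a floor of 1, as MAS5 signals do, and no further normalization between arrays. The methods describe GCRMA values and a mixed model that included sex and mother, neither of which the labels give. Such scaling sets each array's total, so a shift of many genes moves all others.

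Control probe-sets (188) were left out. A probe-set entered a pair of stages where its signal was over the array median in 50% or more of the animals of 1 stage. Each pair was tested with limma 3.58.1 in R 4.3.3 (lmFit, eBayes, two-sided), with Benjamini-Hochberg adjustment over all probe-sets tested. Differences between enzymes and correlations were tested by permutation (100000 resamples, two-sided, numpy 2.4.6), adjusted over 27 and 60 comparisons, with 95% intervals from the pooled SD. Both were tested on simulated data. Background is the level that 95% of the signals of 23 targetless control probe-sets stay under on an array, in place of the opposite-strand controls planned, which the file does not list. Where under 50% of the arrays of a stage were above it, a pathway gene's change is given as a bound. Depth is not defined for arrays, and their number limits the precision.

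Symbols came from the platform annotation (10069 probe-sets with 1 symbol, 198 with several, which were not named). The enzymes and all gene lists were chosen with earlier results of these data known. Named are the 6 enzymes, the 3 largest called rises and falls per list and period, some further list members chosen after their values were seen, every called regulator and 3 genes per enzyme by pattern. Marker lists of hepatocytes, red cell and myeloid precursors, macrophages, T and NK cells, endothelium, stellate cells and fibroblasts, bile ducts, adipocytes and skeletal muscle were summed. Alternatives were no filter, a filter at the 75th percentile, quantile normalization, centring, all arrays in 1 fit, array weights and an offset of 50. Further ones were leaving out replicate 6 of 94 dpc and the mean of both ACADVL probe-sets. Added after seeing the data were leaving out replicate 9 of 1 dpn, leaving out replicates 6 and 13 of 94 dpc, and a covariate. The covariate was the 3′ to 5′ gap of spiked control RNAs, in pairs of postnatal stages. No sequences or coordinates are given.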

Additional observations from a re-analysis of the deposited data

How the results depend on the processing

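The calls of CPT1A in the 3 periods, ACADL in the 3 periods, ACADVL and ACAA1 in period I, ACAA2 in periods II and III and DECR1 in period III kept their direction and their side of the threshold under every alternative run for them. No alternative took up the actin controls. Their 3′ minus 5′ difference was at most 0.78 at 1 dpn and at least 0.96 at 28 dpn, and its part in the changes of period II was not tested. The fall of ACADVL in period II was -0.26 after centring and no longer called. ACADVL in period III became a call at -0.53 with the filter at the 75th percentile and with all arrays in 1 fit, -0.51 with quantile normalization, -0.57 with array weights and -0.63 with the 3′ to 5′ covariate. ACAA2 in period I became a call at -0.71 with quantile normalization, -0.57 with all arrays in 1 fit and -0.68 with array weights. The fall of DECR1 in period I was lost at -0.36 without a filter, with all arrays in 1 fit and without replicate 9 of 1 dpn, at -0.25 after centring, at -0.24 with array weights, at -0.31 without replicate 6 of 94 dpc and at -0.35 without replicates 6 and 13. DECR1 in period II became a call at 0.41 after centring. ACAA1 was lost in period II at 0.22 with quantile normalization, and in period III at 0.26 without a filter and with all arrays in 1 fit, 0.14 with quantile normalization, 0.23 with array weights and 0.28 with the covariate. In the order of levels, CPT1A from 1 dpn to 188 dpn turned to 0.21 after centring, ACADL over the same step to 0.022 with quantile normalization and 0.18 after centring, ACADL from 94 dpc to 28 dpn became a call at 0.46 with quantile normalization and 0.51 after centring, DECR1 over that step turned to 0.16 after centring, and DECR1 from 94 dpc to 188 dpn was lost at 0.24 with quantile normalization. The second ACADVL probe-set from 94 dpc to 188 dpn, -0.21 and not called, turned to 0.20 with quantile normalization and 0.24 after centring.

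Of the 27 differences between enzymes, ACAA1 against ACADL passed with quantile normalization in periods I (-0.45) and III (-0.40), and CPT1A against ACADVL in period I, -0.04 with all arrays, ran from -0.0052 without replicate 9 of 1 dpn to 0.0055 without replicate 6 of 94 dpc. With the filter at the 75th percentile fewer probe-sets were tested, and 4472 and 5321 were called in periods I and II (7309 and 9375 otherwise), 6040 and 6076 from 94 dpc to 28 and 188 dpn and 5536 from 1 dpn to 188 dpn. After centring 3, 6 and 3 of the other oxidation genes fell in periods I, II and III (5, 10 and 5 otherwise). Where no cause is named, the cause was not tested. No paired analysis was possible because the labels give no number shared between stages. The covariate could not be fitted in pairs with 94 dpc, where the 3′ to 5′ differences of the added RNAs (0.23 to 0.46) did not overlap those of the later stages. Signals near background, as those of PPARA, limit what is measured, and so does the number of arrays.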

Other observations

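CPT1A was set against each of the 7 measured regulators within each stage, a set of comparisons chosen after the stage values were seen. Of 28 correlations 0 passed an adjusted p of 0.05 by r or by rho. The lowest unadjusted p of r was with PPARD at 94 dpc (r = 0.62, rho = 0.58, permutation p = 0.0106 and 0.0208, adjusted p = 0.296 and 0.292, 0.62 without the 2 arrays farthest from the median of CPT1A). With PPARA at 1 dpn r was 0.37 and rho 0.59 (permutation p = 0.155 and 0.0184, adjusted p = 0.701 and 0.292), and r was 0.54 without the 2 farthest arrays. At 188 dpn, where CPT1A spread most, r was 0.43 with PPARGC1A (rho 0.36, permutation p = 0.0995 and 0.175) and 0.34 with PDK4 (rho 0.33, permutation p = 0.197 and 0.218), and these fell to 0.02 and 0.10 without the 2 arrays farthest from the median.

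The wider fall of the second ACADVL probe-set in period II had counterparts among other pathway genes with several probe-sets. The main probe-sets of HADHB and ACSL5 fell by 0.78 and 0.25 in period II, and their most divergent other probe-sets fell by 1.54 and 2.03. Of the 29 other probe-sets of 19 listed genes tested in period II, 22 changed to a lower value than the main one did (median difference -0.47), against 11 of 29 in period I (0.14) and 17 of 28 in period III (-0.05). These 19 genes include synthesis, regulator and organelle content genes. Some went the other way in period II, as a VDAC2 probe-set that rose by 1.21 against 0.15 for the main one. Of DECR2 the main probe-set was at -0.19 and not called, and the other fell by 1.18.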
